A study of Mus musculus with 2 samples.

Results

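The Rhox genes analyzed here are Rhox5, Rhox6, Rhox9 and Rhox13, 4 reproductive homeobox genes of mouse chromosome X, taken by their symbols from a table of 24532 genes. All 4 were found in the table, which holds 31 Rhox genes in all. RNA-seq was performed on mouse E14 embryonic stem cells (ESCs), the wild-type line, and on E14-Sox2 TA/WT cells (labeled and called Sox2 T258A here), in which 1 allele of the endogenous Sox2 gene carries the T258A change and the other is wild type. Each genotype had 1 library of polyadenylated RNA, and no difference therefore has a replicate check. Sox2 T258A cells descend from a single sorted cell edited with CRISPR/Cas9, and per the study's methods such clones were kept in serum, leukemia inhibitory factor (LIF) and 2i, the inhibitors PD0325901 and CHIR99021, and used after 2i was withdrawn, whereas E14 cells were grown in serum and LIF. Genotype, clone and culture history cannot be told apart. The comparison asks how transcripts of the Rhox genes differ between ESCs with and without a Sox2 allele that lacks the O-GlcNAc acceptor residue threonine 258.

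Rhox genes encode homeodomain transcription factors of the paired-like class and lie side by side in a cluster on chromosome X. They are known for selective expression in the testis, ovary, epididymis, placenta and germ cells, and in cultured stem cells and somatic cells many of them are kept silent by DNA methylation and linker histone. Rhox5, first described as Pem, is the founding member and is transcribed in Sertoli cells, in the ovary and placenta, and in ESCs, from separate promoters. Rhox6 and Rhox9, first described as Psx1 and Psx2, are closely related and are known from placenta and germ cells, and Rhox13 is known from germ cells of the testis.

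In the RefSeq annotation of GRCm38 the 31 Rhox genes spanned 916 kb (chrX:37213804-38129966). Rhox5 (Entrez gene 18617) was annotated at chrX:37754608-37808878, Rhox6 (19202) at chrX:37827055-37829857, Rhox9 (104384) at chrX:37899097-37901770 and Rhox13 (73614) at chrX:38120840-38129966. All 4 are protein-coding. For Rhox5, the GENCODE transcripts of the same build, each with 4 exons, begin 50.2 kb downstream of the RefSeq start, so the first exon in use is not settled by the annotations, and a gene table does not separate the promoters. GENCODE placed the start of Rhox13 379 bases downstream of RefSeq, that of Rhox6 145 bases upstream, and that of Rhox9 at the same base.

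The 250 bases upstream of the RefSeq start are shown for the Rhox genes with reads in both libraries that were lower in Sox2 T258A cells. They are given as far as the RefSeq table of promoters held them, because DNA methylation acts mainly on CG dinucleotides. The table matched Rhox5 and Rhox13, and also Rhox10 and Rhox1, but not Rhox6 and Rhox9. Each is read 5′ to 3′ on the strand of the gene, from RefSeq, build GRCm38.p6, with CG dinucleotides in capitals.
Rhox5 (chrX:37754358-37754607, plus strand): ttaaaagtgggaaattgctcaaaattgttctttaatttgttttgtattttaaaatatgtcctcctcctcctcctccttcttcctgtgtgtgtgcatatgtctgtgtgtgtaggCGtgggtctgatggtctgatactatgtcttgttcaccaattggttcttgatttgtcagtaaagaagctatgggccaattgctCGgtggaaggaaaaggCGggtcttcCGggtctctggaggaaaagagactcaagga
Rhox13 (chrX:38120590-38120839, plus strand): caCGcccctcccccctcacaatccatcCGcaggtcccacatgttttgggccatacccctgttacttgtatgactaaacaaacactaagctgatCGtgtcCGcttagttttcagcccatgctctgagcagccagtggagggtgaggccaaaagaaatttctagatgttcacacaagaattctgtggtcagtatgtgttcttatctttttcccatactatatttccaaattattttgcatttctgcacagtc
Rhox10 (chrX:38066225-38066474, plus strand): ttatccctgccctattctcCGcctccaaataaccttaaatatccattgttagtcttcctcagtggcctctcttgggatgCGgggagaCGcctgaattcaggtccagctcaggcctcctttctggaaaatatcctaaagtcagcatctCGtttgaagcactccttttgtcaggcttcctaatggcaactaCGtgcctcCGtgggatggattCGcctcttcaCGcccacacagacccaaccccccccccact
Rhox1 (chrX:37222259-37222508, minus strand): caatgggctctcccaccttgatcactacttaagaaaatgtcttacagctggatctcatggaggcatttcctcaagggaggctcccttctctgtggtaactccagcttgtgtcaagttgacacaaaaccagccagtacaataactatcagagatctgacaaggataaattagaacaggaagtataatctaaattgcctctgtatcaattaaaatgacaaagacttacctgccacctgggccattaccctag

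The windows of Rhox5, Rhox13 and Rhox1 held fewer CG dinucleotides than the median window, and that of Rhox10 held more. The GENCODE start lies 50.2 kb downstream of the RefSeq start for Rhox5 and 379 bases downstream for Rhox13. These windows may therefore not be the promoters in use. Rhox5 and Rhox13 each held 4 CG dinucleotides, Rhox10 held 8 and Rhox1 held 0, beside a median of 6 over 32851 upstream windows of the same length. The observed over expected CG ratio was 0.363 for Rhox5, 0.329 for Rhox13 and 0.512 for Rhox10, with a median of 0.374 over all windows. Motifs were searched on both strands. The ETS letters CCGGAAG were present once in the Rhox5 window, on the opposite strand and close to the 3′ end, and in 6.91% of all windows. The Sox-type letters ACAAAG were present once in the Rhox1 window and in 16.5% of all windows. The letters CACGTG (6.02% of all windows) and GCGGGA (16.9%), which are bound by Max-type and E2f factors, were not in the 4 windows. A match describes letters only. DNA methylation and binding of factors were not measured in these libraries.

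The 2 libraries held 60263536 reads for E14 and 44609228 for Sox2 T258A cells. Sox2 (Entrez gene 20674), the edited gene, had a TPM (a transcript level scaled for gene length and library size) of 372.5 in E14 and 274.2 in Sox2 T258A cells, and since the table holds no sequence, the edit could not be checked. All 10 ESC markers were present in both libraries, 7 of them lower and 3 higher in Sox2 T258A cells. The pluripotency factor Nanog was lowest and more than 2-fold lower (TPM 526.9 and 251.3, log2 ratio -1.07), Utf1 was highest (0.24), and Pou5f1, which encodes Oct4, had 1725 and 1759. Following the study's methods, a gene was counted as changed when its TPM differed more than 2-fold and reached 10 in at least 1 library. Of 9094 genes with such a TPM, 749 (8.24%) differed more than 2-fold. In Sox2 T258A cells 379 (4.17% of the 9094) were more than 2-fold higher and 370 (4.07%) were more than 2-fold lower. The paper reports other counts for this comparison, and the cause of the mismatch was not tested. Intervals given with TPM values and log2 ratios are 95% intervals from the number of reads, and they cover counting error only. At many reads a small difference also separates them, as for Zfp57 (TPM 417.5 to 426.8 and 434.6 to 446.4, log2 ratio 0.06). The share of all genes with separate intervals was not counted, so separate intervals are no trait particular to Rhox genes.

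Rhox5 was the one member with a TPM over 10, and it was about 10-fold lower in Sox2 T258A cells. Its TPM was 257.9 in E14 (6498 reads, interval 251.6 to 264.2) and 26.1 in Sox2 T258A cells (441 reads, 23.7 to 28.7), so that 10.1% of the E14 level remained. The log2 ratio (Sox2 T258A over E14) was -3.30 (-3.45 to -3.16). The intervals of the levels lay far apart. Of the 9094 genes past the filter, 22 (0.242%) had a lower ratio than Rhox5. In rank, 557 genes had a higher TPM than Rhox5 in E14, against 5661 in Sox2 T258A cells.

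**Figure D1:**
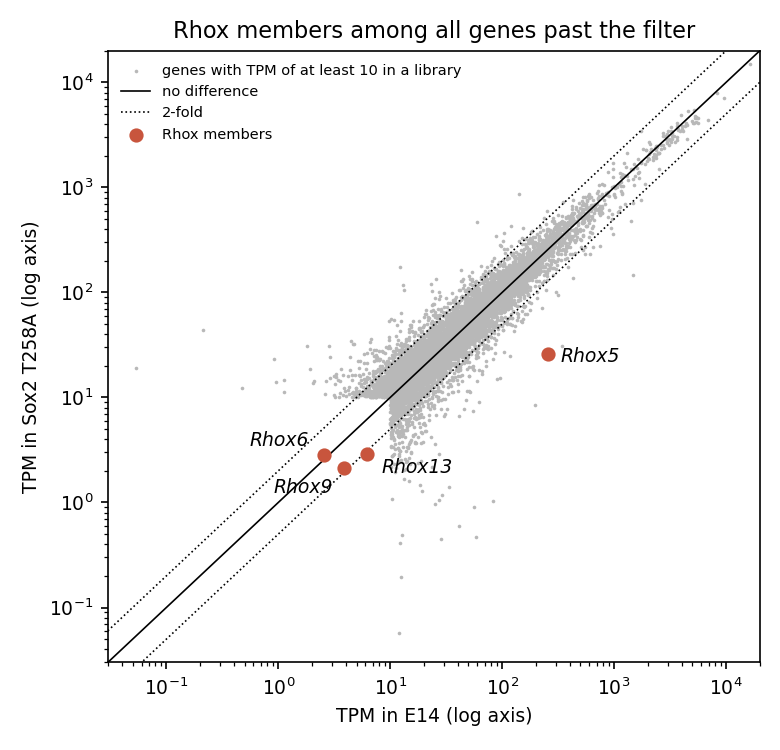
TPM in E14 (x axis, log scale) against TPM in Sox2 T258A cells (y axis, log scale), with genes past the filter in grey and the 4 Rhox members in red. Genes listed at 0 in a library are not drawn. Rhox5 (257.9 and 26.1) lies well below the lower 2-fold line, Rhox13 lies just past it, Rhox9 just inside it, and Rhox6 lies close to the line of no difference.

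The other members were expressed at a TPM under 10 in both libraries, and so none of them entered the 2-fold count above. Over the 13269 genes with an average TPM of 1 or more, which all 4 members reached, 14.3% differed more than 2-fold, 5.86% were more than 2-fold higher, 8.44% were more than 2-fold lower and 46.8% were lower by any amount. Among the 4604 genes with an average TPM from 1 to under 10, where Rhox6, Rhox9 and Rhox13 lie, these shares were 18.5% and 55.8%, and a 2-fold lower value was therefore more frequent at their level.

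Rhox13, the germ cell member at the distal end of the cluster, had a TPM of 6.14 in E14 (243 reads, 5.40 to 6.97) and 2.90 in Sox2 T258A cells (77 reads, 2.29 to 3.63). The intervals did not overlap. The log2 ratio of -1.08 was past 2-fold, but its interval (-1.47 to -0.71) reached across the 2-fold line, so at this depth a difference of less than 2-fold was not resolved from a larger one. Of genes with an average TPM of 1 or more, 7.39% had a lower ratio than Rhox13.

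Rhox9 had a TPM of 3.86 in E14 (108 reads, 3.17 to 4.66) and 2.12 in Sox2 T258A cells (40 reads, 1.51 to 2.89). It was lower without reaching 2-fold on the TPM scale, with a log2 ratio of -0.87 (-1.43 to -0.33), and just past 2-fold with FPKM (-1.01) or with centring on chromosome X (-1.02). If both mates of a pair were counted, so that 0.5 of the reads are independent, the intervals of its levels overlapped (2.90 to 5.04 and 1.29 to 3.27). On the TPM scale 10.4% of genes with an average TPM of 1 or more had a lower ratio.

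Rhox6 was the member without a lower value. Its TPM was 2.56 in E14 (70 reads, 2.0 to 3.24) and 2.84 in Sox2 T258A cells (52 reads, 2.12 to 3.73), and these intervals overlapped. The log2 ratio was 0.15 (-0.40 to 0.69), so no difference was detectable at this depth in either direction, and a change of more than 2-fold either way lay outside the interval. The interval of the ratio of Rhox5 did not overlap that of Rhox6, while the interval of Rhox9 did. That of Rhox13 was clear of Rhox6 with reads as deposited, but with 0.5 of the reads the intervals of Rhox13 (-1.67 to -0.57) and Rhox6 (-0.64 to 0.92) overlapped.

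Because Rhox6 and Rhox9 are paralogs, the sequence they share was measured. Of all 50-base stretches of the Rhox6 transcript in GENCODE, 16.5% also occurred in Rhox9, and 4.72% of those of Rhox9 occurred in Rhox6, while Rhox5 and Rhox13 shared no such stretch with any other gene. How reads that match several genes were assigned is not given in the sources used here, so the split between Rhox6 and Rhox9 is uncertain. Summed over both genes, TPM was 6.42 in E14 (178 reads) and 4.96 in Sox2 T258A cells (92 reads). The log2 ratio was -0.37 (-0.75 to -0.00106), with an upper bound close to no difference. That interval uses all deposited reads and would be wider if both mates of a pair were counted.

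Rhox5 stood above the other members in both libraries. On the TPM scale it was 42.0 times the next member, Rhox13, in E14 and 9.0 times in Sox2 T258A cells. Below Rhox5 the order in E14 was Rhox13, Rhox9 and Rhox6. The interval of Rhox13 was clear of that of Rhox9, whereas those of Rhox9 and Rhox6 touched. In Sox2 T258A cells the order was Rhox13, Rhox6 and Rhox9, and the intervals of all 3 overlapped. Rhox5 contributed 92.5% of the summed TPM of the 31 Rhox genes in E14 (278.8) and 73.1% in Sox2 T258A cells (35.7). Without Rhox5 the summed TPM was 20.9 in E14 and 9.60 in Sox2 T258A cells.

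**Figure D2:**
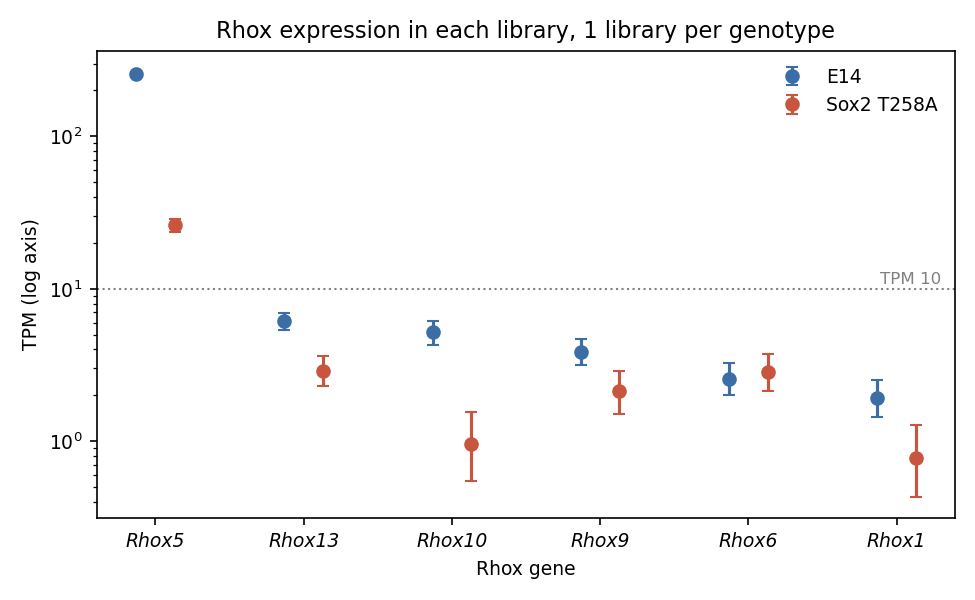
TPM (y axis, log scale) of the 6 Rhox genes with reads in both libraries, in E14 (blue) and Sox2 T258A cells (red), with 95% counting intervals and 1 library per genotype. Rhox5 is the one gene above the dotted line at a TPM of 10, and Rhox6 is the one gene whose intervals in the 2 libraries overlap with reads as deposited (with 0.5 of the reads those of Rhox9 and Rhox1 overlap too). The share of all genes without such overlap was not counted.

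The remaining 27 Rhox genes were examined next, to see whether the members stood for the cluster. Of these, 2 had reads in both libraries. Rhox10, which lies between Rhox9 and Rhox13 and is known from the germ line of the testis, went from a TPM of 5.17 (124 reads, 4.30 to 6.17) in E14 to 0.956 (16 reads, 0.547 to 1.55), with a log2 ratio of -2.44 (-3.29 to -1.68). It was more than 2-fold lower over its whole interval, also from 0.5 of the reads (-3.71 to -1.37). Its interval was clear of those of Rhox13 and Rhox9 with reads as deposited and overlapped both (-1.67 to -0.57 and -1.68 to -0.10) with 0.5 of the reads. Rhox1, at the proximal end of the cluster, went from a TPM of 1.93 (54 reads) to 0.774 (15 reads), with a log2 ratio of -1.32 (-2.25 to -0.47).

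A further 6 Rhox genes had reads in E14 and none in Sox2 T258A cells, the library with fewer reads in total. Over all 24532 genes, 6887 had no read in E14 and 7768 had none in Sox2 T258A cells. These are totals per library. The share of all genes with 4 to 11 reads in E14 that had none in Sox2 T258A cells was not counted. Whether the 6 exceed the loss usual at so few reads was not tested. Rhox2a was the highest of the 6 Rhox genes, with 11 reads in E14, and was 2.46-fold lower when 0 reads are read as the floor of 3. This fold leaves out the counting error of the E14 reads, and the interval of its log2 ratio reached up to -0.75 with reads as deposited. For Rhox4c, with 6 reads and 0, the upper bound was 0.34, so with 0.5 of its reads a lower Rhox2a would not be resolved. The others were Rhox2c, Rhox4c, Rhox4d, Rhox4g and Rhox7a with 4 to 6 reads each, too few for a fold. Summed over copies, the 7 Rhox4 genes held 16 reads in E14 and 0 in Sox2 T258A cells, 3.57-fold lower against the same floor. The 8 Rhox2 genes held 15 and 0 reads, 3.35-fold lower against it, and both folds leave out the counting error of the E14 reads. No read was listed for 19 Rhox genes in either library, among them Rhox8, Rhox11, Rhox12 and all 6 Rhox3 genes. Copies of Rhox2, Rhox3 and Rhox4 share from 44.7% to all of their 50-base stretches with another gene, so a count of 0 there may depend on how shared reads were assigned, which was not tested.

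The genes on either side of the cluster were compared to see whether the difference extended past it. No gene among the 5 nearest expressed neighbours on each side differed 2-fold. On the proximal side, Rnf113a1, a ubiquitin ligase of RNA splicing that lies 21.3 kb from Rhox1, had a log2 ratio of -0.37 (-0.62 to -0.12), and Ndufa1, a subunit of respiratory complex I, had -0.25. Further out, Nkap (0.16), Upf3b (0.11) and Rpl39 (0.07) were near level. On the distal side, Zbtb33, which encodes the methyl-CpG-binding protein Kaiso and lies 59.8 kb beyond Rhox13, had a log2 ratio of 0.59 (0.47 to 0.71). Lamp2 had -0.49, Cul4b 0.38, Mcts1 0.45 and C1galt1c1 -0.04. The median of the 10 neighbours was 0.09, beside 0.15 for 475 genes of chromosome X and 0.04 for all 13269 genes with an average TPM of 1 or more.

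**Figure D3:**
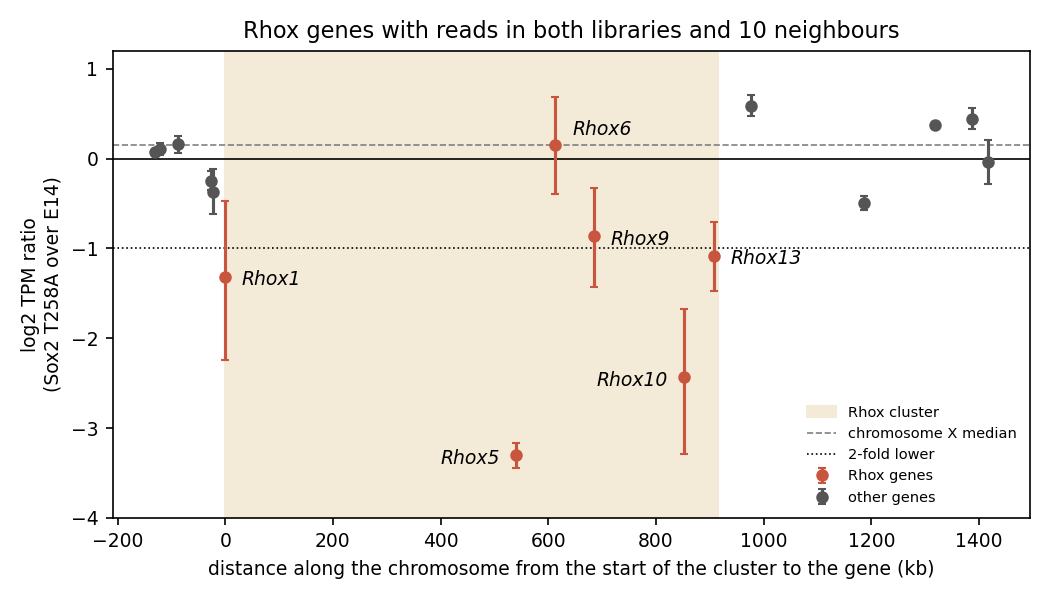
Log2 TPM ratio (y axis, Sox2 T258A over E14) of the 6 Rhox genes with reads in both libraries (red) and of the 10 nearest expressed neighbours (grey), by distance along the chromosome in kb (x axis), with 95% counting intervals. The neighbours lie between -0.49 and 0.59, whereas Rhox5 (-3.30), Rhox10 (-2.44), Rhox1 (-1.32) and Rhox13 (-1.08) lie below the 2-fold line inside the shaded cluster, next to Rhox6 at 0.15.

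On chromosome X as a whole, 10.5% of the genes with an average TPM of 1 or more were more than 2-fold lower and 41.1% lower by any amount. Of its 291 genes past the TPM filter of 10, 17 were more than 2-fold lower and 23 more than 2-fold higher. A lower ratio than that of Rhox5 was found for 7 of the 291, namely Xlr5a, Efhc2, Xlr5b, Xlr3a, Xlr3c, Xlr3b and Pnma5. The Xlr genes are lymphocyte- and germ cell-expressed copies that share sequence, and their single values are uncertain.

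The genes whose TPM in the 2 libraries was most like that of each member were found by distance on the log2(TPM + 0.1) scale, over 2 libraries. For Rhox5 these were Nupr1 (TPM 342.3 and 30.8, distance 0.47), a stress-response chromatin protein, Trib3 (117.5 and 24.6, 1.14), a pseudokinase induced by stress, and Blvrb (127.5 and 42.8, 1.24), a biliverdin reductase. The nearest gene was closer for the members at a low level, namely 4930550C14Rik for Rhox13 (distance 0.01, then Mir1968 and D5Ertd605e), Efcab10 for Rhox9 (0.03, then Sept4 and Il2rg) and Hand1, a trophoblast transcription factor, for Rhox6 (0.03, then Apba2 and Hmgcll1). With 2 libraries such likeness is a description of level and ratio only.

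Genes of general chromatin machinery were then described as lists, and whether each gene acts on Rhox promoters was not tested. Each list has a median log2((TPM + 0.1) ratio) over genes with an average TPM of 1 or more, beside 0.04 for all genes. A gene under 1 in 1 library reaches that average only through the other library, which fixes the direction of its ratio. Of the 9 DNA methylation genes, 8 were higher and 1 was lower, and the median was 0.45. The de novo methyltransferase Dnmt3b was more than 2-fold higher (TPM 67.5 and 150.4, log2 ratio 1.16), as was the demethylating dioxygenase Tet1 (70.1 and 141.7, 1.01, interval 0.99 to 1.04). Dnmt3a, the other de novo enzyme, had a log2 ratio of 0.70, the maintenance enzyme Dnmt1 had 0.43 and its partner Uhrf1 had 0.42. Dnmt3l, the cofactor without catalytic activity, was the lower one (200.2 and 152.9, -0.39).

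Of 14 genes of histone H3 lysine 9 methylation and heterochromatin, 12 were higher and 2 lower, with a median of 0.44, or 0.25 with the GC and length trend removed. Atrx, a chromatin remodeler encoded on chromosome X, was highest (TPM 31.8 and 72.6, log2 ratio 1.19) and the one member past 2-fold, and Kdm3b, a demethylase, was lowest (-0.02). The methyltransferase genes Ehmt2 (0.50) and Setdb1 (-0.02) were not past 2-fold. Of 8 genes of PRC1.6, the Polycomb complex that silences germline genes through Mga, Max and E2f6, 7 were higher and 1 was lower (median 0.48, from Pcgf6 at -0.16 to Mga at 0.78), and none was past 2-fold. The PRC1.6 median was 0.15 once trends with GC content and length were subtracted.

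Linker histone genes differed in both directions. Of 7 expressed genes, 4 were higher and 3 lower, with a median of 0.07 that changed sign with the unit. Hist1h1c, the subtype also known as H1.2, was more than 2-fold higher (142 and 324 reads, log2 ratio 1.77, interval 1.48 to 2.07), and Hist1h1a was lowest (64 and 30 reads, -0.53, -1.21 to 0.12). Most linker histone transcripts lack a poly(A) tail, so polyadenylated libraries see little of them. Among the factors described for Rhox5 promoters, the ETS factors and their partners Gabpa (-0.09), Gabpb1 (-0.00) and Gabpb2 (-0.44) and the zinc finger factors Sp1 (0.22) and Sp3 (0.40) were within 2-fold, and Elf1 was highest (0.74). Gata4, which acts on the Rhox5 promoter used in Sertoli cells, was more than 2-fold lower (TPM 15.0 and 3.8, log2 ratio -1.98), as was Gata6 below the TPM filter (9.46 and 2.58, -1.88). The list had 3 genes higher and 5 lower and a median of -0.04, or -0.44 with the GC and length trend removed.

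Other homeobox genes of the paired class differed in both directions, with 3 of 9 expressed genes higher and 6 lower (median -0.38). The median had the opposite sign (0.75) over genes with an average TPM of 10 or more. Obox6, an oocyte and early embryo gene, had 179 reads in E14 and 4 in Sox2 T258A cells (log2 ratio -4.90, interval -6.79 to -3.52) and was the lowest. Crxos (TPM 23.5 and 2.19, -3.43) and the X-linked placental gene Esx1 (12.4 and 2.53, -2.30) were also more than 2-fold lower. Otx2, a factor of the epiblast and anterior neural tissue, was highest (6.66 and 33.5, 2.33), and Mixl1, a factor of the primitive streak, was also more than 2-fold higher (67 and 150 reads, 1.73).

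A list of genes known from testis and germ cells, meant to be X-linked, held 18 with an average TPM of 1 or more, of which 17 were lower and 1 was higher, with a median of -3.04. The annotation placed 1 of them, Rbmxl2 (log2 ratio -0.55), on chromosome 7. Of the 17 on chromosome X, 16 were lower, 14 of them more than 2-fold, and 1 was higher, with a median of -4.17. The 9 lowest were copies of Xlr3, Xlr4 and Xlr5. The copies other than Xlr3b, and also Fthl17b, Fthl17d and Fthl17f, had a TPM under 1 in Sox2 T258A cells. They reached the average of 1 only through E14, which fixed their lower ratio. The counts and medians of the list therefore rest in part on the filter. List genes under that average went both ways, such as Luzp4 (-2.19) and Usp26 (0.15). Xlr5c went from 170 reads to 0 and Xlr4a from 320 reads to 0. Besides the Xlr copies and Taf7l, those more than 2-fold lower were Fthl17b, Fthl17c, Fthl17d and Fthl17f, copies of another family at few reads. They ran from Fthl17d (39 and 7 reads) to Fthl17c (81 and 25). Without Xlr3, Xlr4 and Xlr5 the median of the list was -1.05, which is the value of Fthl17c. Over genes with an average TPM of 10 or more it was -1.87. Taf7l, a germ cell subunit of the basal transcription machinery, had a TPM of 16.7 and 4.50 (log2 ratio -1.89). Xlr3a (55.7 and 0.910), Xlr3b, Xlr3c, Xlr5a and Xlr5b were the others past the TPM filter and 2-fold. Nr0b1, a nuclear receptor of ESCs, was the higher one (0.11).

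**Figure D4:**
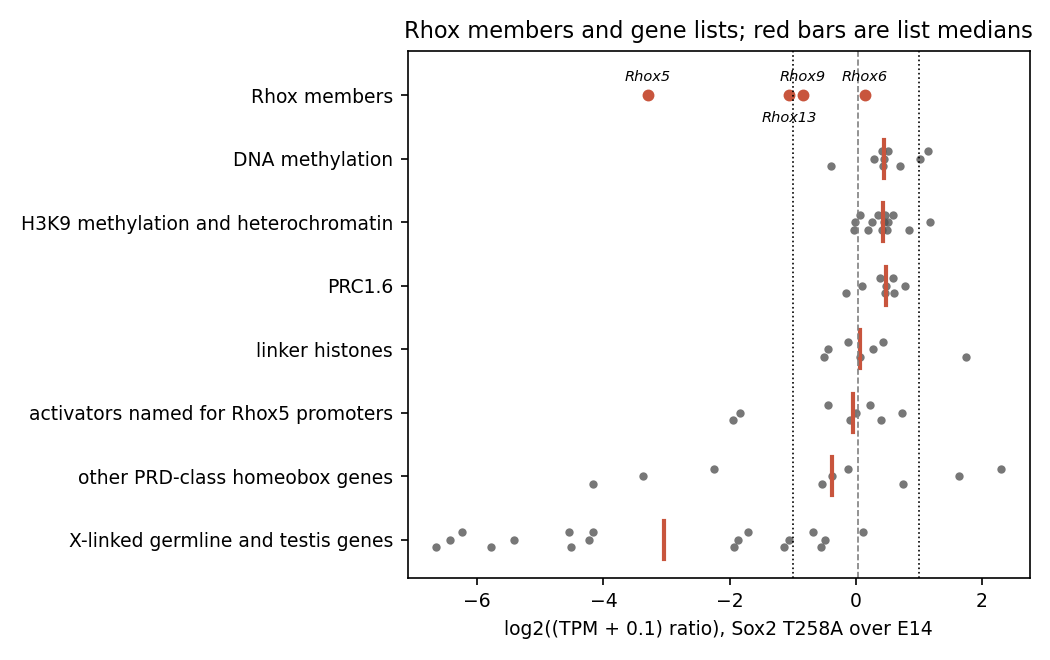
Log2((TPM + 0.1) ratio) (x axis, Sox2 T258A over E14) of the 4 Rhox members (red points) and of the genes with an average TPM of 1 or more in 7 lists (grey points), with red bars at the list medians, a dashed line at the median of all genes and dotted lines at 2-fold. DNA methylation, heterochromatin and PRC1.6 genes center near 0.45, 0.44 and 0.48, and the X-linked germline list, which includes Rbmxl2 of chromosome 7, at -3.04. That last median includes genes with a TPM under 1 in Sox2 T258A cells, which reached the average of 1 only through E14.

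Markers of other cells, among them cells in which Rhox genes are known to be active, were measured beside the Rhox genes. Of 11 primitive endoderm markers, 10 had an average TPM of 1 or more, and 9 of these were lower in Sox2 T258A cells, with a summed TPM of 146.2 in E14 and 88.8 in Sox2 T258A cells. Sox17 had a log2 ratio of -2.09 and Pdgfra -2.04, Cubn was the higher one (0.17), and none of the 11 was at 0 in either library. Of 10 germ cell markers 7 were lower and 2 higher, with 1 below that level, and the summed TPM was 227.7 and 112.7. Mael (66.5 and 16.7) and Sycp3 (85.4 and 32.2), which are also known as methylation-sensitive germline genes in ESCs, were more than 2-fold lower, Prdm1 was highest (log2 ratio 1.47), and the defining gene Nanos2 had 2 reads and 0. Of 7 expressed trophoblast markers, 4 were higher and 3 lower. Cdx2 was highest (log2 ratio 4.69), Tfap2c (TPM 50.9 and 16.1), Ascl2 and Krt7 were more than 2-fold lower, and Tpbpa, Prl3d1 and Elf5 had no read in either library. Their summed TPM was 126.2 in E14 and 201.7 in Sox2 T258A cells, and without the keratin gene Krt8 (53.9 and 156.0) it was 72.3 and 45.7. Gonadal somatic markers were 2 higher and 2 lower, with a summed TPM of 133.2 and 82.1. Dmrt1 (91.6 and 40.6) was lowest, Wt1 was highest (log2 ratio 1.14), the sum without Dmrt1 was 41.6 and 41.5, and Fshr and Cyp17a1 had no read. Fibroblast markers were likewise 2 higher and 2 lower, with a summed TPM of 51.0 and 21.0. Thy1 (40.1 and 11.4) and Pdgfrb were more than 2-fold lower, the sum without Thy1 was 11.0 and 9.56, Fbn1 was the highest expressed one (0.30), and Lum, Dcn and Postn had no read. Below an average TPM of 1, the collagen gene Col3a1 had 15 and 151 reads. The part of primitive endoderm or germ cell transcripts in the Rhox5 difference was not tested, and in bulk RNA fewer cells that express Rhox5 and less Rhox5 RNA per cell cannot be told apart.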

How the data were processed

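Polyadenylated RNA of 1 E14 and 1 E14-Sox2 TA/WT library was sequenced on an Illumina NovaSeq instrument. The authors deposited 1 gene table for mm10 (GRCm38) with read counts without normalization, FPKM scaled by the authors to length and fragments, and TPM, which the authors scaled to a near-constant library sum (993247 and 994155). The submitters' processing notes name bcl2fastq 2.20.0, Trimmomatic, HISAT2 2.1.0 and StringTie 2.1.3b. Counting options are not given in the sources used here. Low even counts were in excess (2 reads at 344 genes and 1 read at 294 in E14), so both mates of a pair may have been counted, and intervals may be too narrow.

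The ratio of TPM without a pseudocount was the measure, without a test. Clopper-Pearson and Poisson 95% intervals and the floor of 3 reads (0.0498 and 0.0673 CPM) cover counting error only. Scripts used Python 3.11.15 and scipy 1.17.1, and were tested on simulated data. Alternatives used edgeR 4.0.16 (TMM), DESeq2 1.42.0 (size factors), other filters, thresholds, units and centring, and, added after the data were seen, a GC and length correction, sums over paralogs, lists and marker sums without named genes, and intervals from fewer reads. RefSeq positions matched 24458 genes.

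Members and lists were chosen with earlier results of these data known. Named are the members, Sox2, Rhox genes with at least 10 reads, list extremes and list genes past 2-fold, genes nearest in level and cluster neighbours. Pnma5, Efhc2 and further list genes were named after their values were seen. At 93 genes, 0 of them Rhox or list genes, TPM and FPKM were over 1% out of proportion.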

Additional observations from a re-analysis of the deposited data

How the results depend on the processing

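No paired analysis was possible because each genotype had 1 library, and for the same reason no library could be left out. Rhox5, Rhox9 and Rhox13 kept a negative log2 ratio under all alternatives run, from -3.45 to -3.10, -1.02 to -0.37 and -1.23 to -0.73. The value of -0.37 is that of Rhox9 summed with Rhox6. For Rhox5 the ratio left its counting interval with FPKM (-3.45), CPM (-3.45), centring on chromosome X (-3.45) and the GC and length trend removed (-3.10). Rhox13 fell short of 2-fold with the trend removed or a pseudocount of 1. Rhox6 ran from -0.37, summed with Rhox9, to 0.46, and was below 0 in 2 of 11 alternatives. Rhox9 passed 2-fold with FPKM (-1.01) and with centring on chromosome X (-1.02). With intervals from 0.5 of the reads, chosen after the data were seen, the upper bounds were -3.11 for Rhox5, -0.57 for Rhox13 and -0.10 for Rhox9, below 0, and the interval of Rhox6 (-0.64 to 0.92) then overlapped that of Rhox13.

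The counts of genes past 2-fold (379 higher, 370 lower) became 886 and 1366 with the TPM filter at 1, 1836 and 3388 without a filter, 1291 and 955 at 1.5-fold and 104 and 136 at 3-fold, and 597 were lower with that filter at 5.

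List medians with FPKM and with the GC and length trend removed were 0.31 and 0.33 for DNA methylation, 0.29 and 0.25 for heterochromatin, 0.33 and 0.15 for PRC1.6, -0.0722 and -0.0521 for linker histones, which changed sign, and -0.19 and -0.44 for Rhox5 promoter factors. At a mean TPM of at least 10 the paired-class homeobox median reversed to 0.75, with fewer genes, and the X-linked germline median was -1.87. The latter was -1.88 with a pseudocount of 1, -1.05 without Xlr genes and -4.17 over genes on chromosome X only. The cause of the other shifts was not tested.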
